A study of Mus musculus with 10 samples.

Results

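Retinal macrophages and microglia were compared between mice with and without an optic nerve crush. All cells of 2 injured library pools and 2 uninjured libraries were chosen by the library name in the deposited table, 209 of the 1168 cells in the series. Unique molecular identifiers (UMIs, each marking 1 captured transcript molecule) were summed per library. The comparison covered the 9059 gene entries with a UMI in both groups, of 16620 with a UMI anywhere in the series. The mice were wildtype, of the 129S1/SvlmJ strain and of both sexes, 10 weeks old at collection, although the strain label also reads P56. Injured mice had the optic nerve crushed at 8 weeks, 2 weeks before collection, and uninjured mice had no crush. The series describes 4 injured and 2 uninjured retina samples, and the table merges the injured ones into pool 1_2 and pool 3_4, so the samples inside a pool could not be separated. The tests therefore set 2 pools against 2 libraries, and the labels do not say how many animals each sample came from, so p-values measure only the spread between these libraries.

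Microglia are the resident phagocytes of the retina and are known in the healthy tissue by a homeostatic set of genes that includes P2ry12, Tmem119 and Cx3cr1. Nerve crush severs the axons of retinal ganglion cells, which then die over days to weeks, and microglia and infiltrating macrophages clear the remains. Immediate early genes, heat shock genes and cytokine genes are known as fast responders in these cells.

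Pool 1_2 held 109 cells and 1420930 UMIs, pool 3_4 held 57 cells and 310892 UMIs, library 5 held 31 cells and 142787 UMIs and library 6 held 12 cells and 56838 UMIs. The median UMIs per cell were 12989, 3853, 4250 and 4712, and no barcode occurred in more than 1 retina cell. The last 24183 of the table's 52181 entries held 7753 UMIs of injured retina and 0 UMIs of uninjured retina. All 4 optic nerve libraries had UMIs there, 332 to 26222, the lowest in an uninjured library of 84121 UMIs, fewer than library 5 holds. Whether the groups were counted on different annotations was not tested. Markers of microglia were present in every library, with 14 or 15 of 15 markers detected and a summed level of 18363 and 17607 CPM (the usual counts-per-library scale, UMIs of a gene over all UMIs of the library) in the injured pools against 31621 and 35364 CPM in the uninjured libraries. Markers of T cells summed to 391 and 1010.0 CPM in the injured pools and 14 and 0 CPM in the uninjured libraries, and markers of monocytes to 603 and 547 CPM against 21 and 17.6 CPM. The T cell receptor constant genes Trac, Trbc1 and Trbc2 were at 0 in all 4 libraries. Markers of rods ranged from 7.74 to 70.0 CPM over the 4 libraries, and those of amacrine cells were 0.704 and 3.22 CPM in injured and 63.0 and 299.1 CPM in uninjured retina. The part of these other cells in the results was not tested, apart from the fits without T-like cells given beside the gene groups.

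T-like cells, a cluster of 46 cells led by genes that included Skap1, Ms4a4b and Cd3e, came from the injured pools alone. They were 22 of 109 cells in pool 1_2 and 24 of 57 in pool 3_4, and 0 of 31 and 0 of 12 in libraries 5 and 6, which allows shares of up to 9.68% and 25.0% by the limit of 3 counts and 11.2% and 26.5% by the exact Clopper-Pearson 95% interval. The mean share was 31.1 percentage points higher in the injured pools, with p = 0.333 by the exact two-sided permutation test over the 4 libraries, the smallest p that this design allows. T-like cells were small, with medians of 4527 and 1837 UMIs against 13985 and 6333 for the other cells of the same pools, so they contributed 7.98% and 15.2% of the UMIs of pools 1_2 and 3_4. Each of them had 3 to 14 of the 18 T cell markers and a median of 1 of the 15 microglia markers, whereas no other retina cell had more than 1 T cell marker. The other 163 cells fell into 3 clusters, and these followed the injury groups. All 43 uninjured cells formed a microglia-like cluster whose leading genes included Fcrls, Tcim and Ptp4a1. An unnamed cluster of 100 injured cells was led by Rnasek, Gm42418 and Gng10, and an unnamed cluster of 20 injured cells by Lrmda, Ldlrad3 and Frmpd4. Over the 120 cells of the 2 unnamed clusters together, the median was 12 of the 15 microglia markers detected, at a median of 12920.5 UMIs. The microglia-like cells had a median of 13 at 4302 UMIs, so depth differed between them. In the cluster of 20 cells the median share of UMIs in genes that span more than 200 kb was 4.51% and 6.14% in the 2 pools, against 4.34% and 5.10% in the T-like cluster and 1.44% and 1.32% in the cluster of 100.

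**Figure D1:**
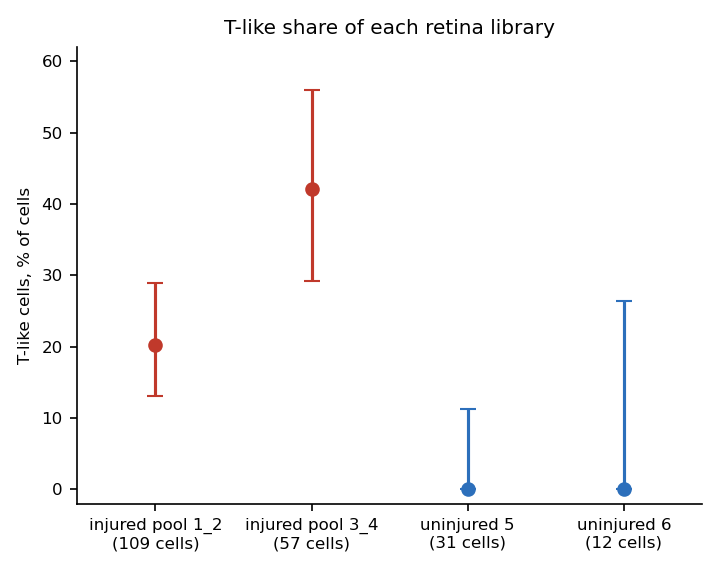
Percentage of cells in the T-like cluster (vertical axis) in each of the 4 retina libraries (horizontal axis, with the number of cells). Points are the shares and bars the exact Clopper-Pearson 95% intervals, which cover counting error only. The injured pools, in red, stand at 20.2% and 42.1%, and the uninjured libraries, in blue, at 0%.

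Injury was tested with edgeR's quasi-likelihood method on the summed UMIs, and a gene was called at a Benjamini-Hochberg adjusted p under 0.05. Of 3276 genes that passed the filter on low counts, 318 rose and 328 fell (19.7% called, 9.71% higher and 10.0% lower), and the median log2 change over all tested genes was 0.06. Of these tested genes 948 passed the filter in both injured pools but not in both uninjured libraries and 406 in both uninjured libraries but not both pools, so counts among tested genes of a list lean toward genes that differ. The levels of the 2 groups did not overlap for 62.5% of all tested genes (32.2% higher and 30.3% lower in the pools). A gene said below to have separate groups is therefore no exception among tested genes. The number called was 381 without pool 1_2, 387 without pool 3_4, 338 without library 5 and 580 without library 6. Without T-like cells 540 of 2945 genes were called (18.3%, 9.0% higher and 9.34% lower), and 516 of the 646 calls kept their direction and their call. Uninjured depth was low, and 92 of the 318 rises rested on 3 or fewer uninjured UMIs, which is why no fold is given for such genes below. Of genes that rose, 43.4% had a near-identical pseudogene copy in the annotation, against 22% of those that fell and 33.0% of those not called. With overlapping and copied genes left out, 409 of 2089 genes were called (19.6%, 8.9% higher and 10.7% lower). In the order pool 1_2, pool 3_4, library 5, library 6, all levels below are CPM and all changes are log2 changes of injured minus uninjured retina with their standard error.

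**Figure D2:**
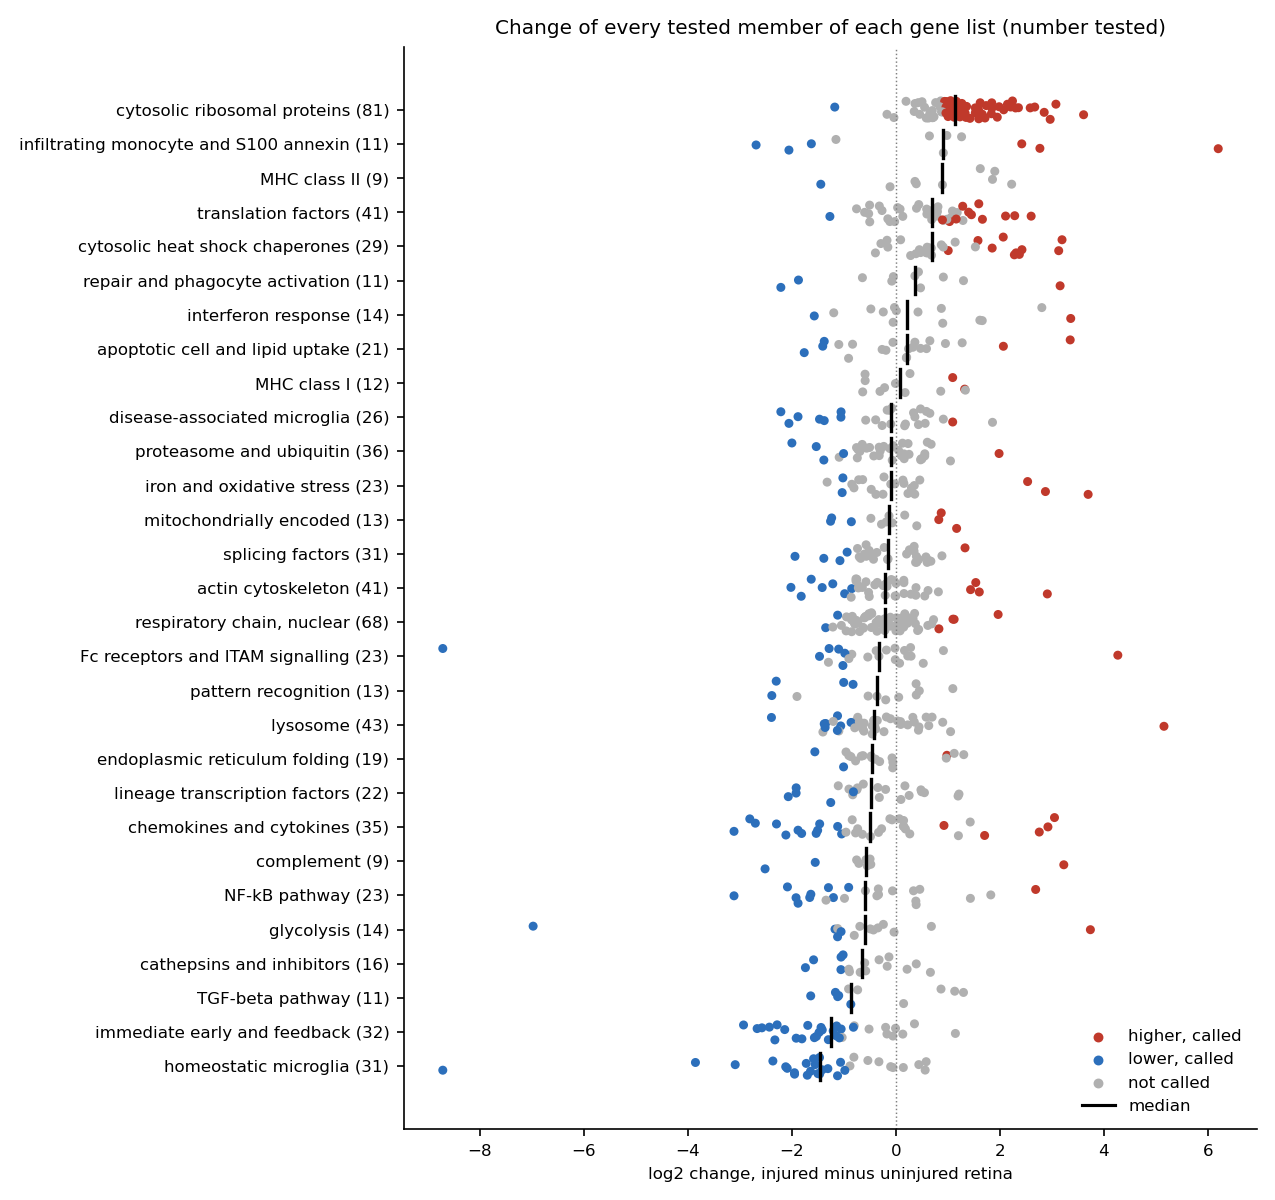
Log2 change of injured minus uninjured retina (horizontal axis) for every tested member of each gene list (vertical axis, with the number tested). Red points were called higher, blue points called lower and grey points not called, and the black bar is the list's median. The homeostatic list has its median at -1.47 and the ribosomal protein list at 1.13, and the leftmost point is Fcrls, which had 1 UMI in the injured pools.

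Most homeostatic microglia genes fell. Of 31 tested members 21 fell and none rose, with a median change of -1.47, and 20 of 31 fell without T-like cells. P2ry12 (ENSMUSG00000036353, chromosome 3, 59216272 to 59262871 in GRCm38), the purinergic receptor that steers microglial processes toward ATP, stood at 259.7 and 344 CPM in the injured pools and 1029.5 and 1355 CPM in the uninjured libraries. The groups did not overlap, and P2ry12 fell by 1.95 ± 0.28 (edgeR adjusted p = 0.000441). Tmem119 (ENSMUSG00000054675, chromosome 5, 113793729 to 113800516 in GRCm38), a membrane protein used to tell microglia from other macrophages, stood at 158 and 244 CPM in the injured pools and 756 and 774 CPM in the uninjured libraries and fell by 1.95 ± 0.29 (edgeR adjusted p = 0.00057). Bin1, an endocytosis adaptor, stood at 106 and 125 CPM in the injured pools and 567 and 633 CPM in the uninjured libraries, with a change of -2.37 ± 0.27 (edgeR adjusted p = 9.35e-05). Slco2b1, an organic anion transporter, stood at 98.5 and 122 CPM in the injured pools and 455 and 475 CPM in the uninjured libraries, with a change of -2.09 ± 0.28 (edgeR adjusted p = 0.000322). In all 4 of these genes each injured pool was below each uninjured library, as in 30.3% of all tested genes. The fractalkine receptor Cx3cr1 fell as well, from 2101 and 3167 CPM in the uninjured libraries to 906 and 929.6 CPM in the injured pools, a change of -1.47 ± 0.28 (edgeR adjusted p = 0.0027). The list did not move as a block. Csf1r, the survival receptor of microglia and macrophages, stood at 1457 and 1229 CPM in the injured pools and 1212 and 1267 CPM in the uninjured libraries, and its groups overlapped (change 0.14 ± 0.27, edgeR adjusted p = 0.74). The number of members that fell was 9 without pool 1_2, 13 without pool 3_4, 17 without library 5 and 22 without library 6. P2ry12, Tmem119, Bin1 and Slco2b1 were called in each of these fits. Trem2, Tyrobp and Cst3 are members of this list and also of lists described below.

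**Figure D3:**
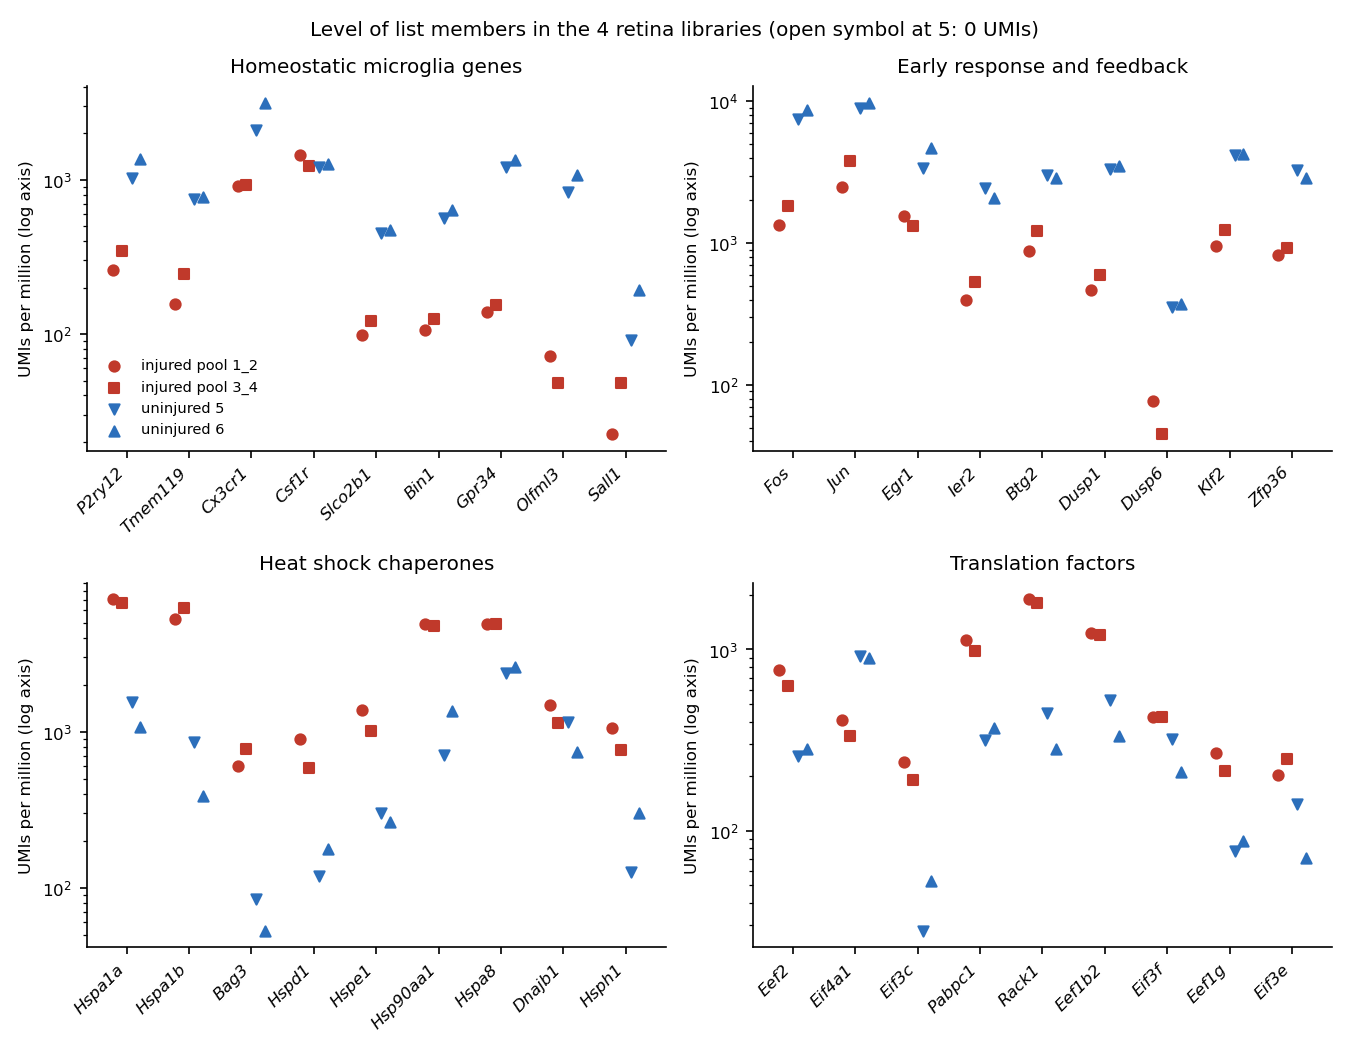
Level of 9 members of each of 4 gene lists in CPM on a log axis, in injured pools 1_2 (red circles) and 3_4 (red squares) and uninjured libraries 5 (blue, point down) and 6 (blue, point up). Injured points lie below uninjured ones for the homeostatic genes shown except Csf1r and for the early response genes shown, and above them for the heat shock genes shown except Dnajb1, whose groups overlap. Eif4a1 is the translation factor shown that is lower in the injured pools.

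Some transcription factors of the lineage list fell. Of 22 tested factors 5 fell and none rose, with a median change of -0.49, and 6 of 22 fell without T-like cells. Over all tested genes 10.0% fell. The 5 were Sall1, Cebpa, Klf2, Klf6 and Bhlhe41. Klf6 is also counted among the immediate early genes, and the calls of Klf6 and Bhlhe41 were lost in 9 and 7 of 15 alternatives. Sall1, a microglial identity factor, stood at 22.5 and 48.2 CPM in the injured pools and 91 and 194 CPM in the uninjured libraries and fell by 2.07 ± 0.51 (edgeR adjusted p = 0.0142), a call that was lost without pool 1_2 and without library 6. Cebpa, a myeloid factor, stood at 215 and 151 CPM in the injured pools and 798 and 598 CPM in the uninjured libraries and fell by 1.92 ± 0.30 (edgeR adjusted p = 0.000828). Klf2, a quiescence factor of leukocytes and vessels, stood at 952 and 1238 CPM in the injured pools and 4174 and 4223 CPM in the uninjured libraries and fell by 1.92 ± 0.29 (edgeR adjusted p = 0.00057), a call lost without pool 1_2, and it is also counted among the immediate early genes. For Cebpa and Klf2 both pools were below both uninjured libraries. The macrophage factor Spi1 was at -0.75 ± 0.33 (edgeR adjusted p = 0.125) and Irf8 at -0.83 ± 0.30 (edgeR adjusted p = 0.0622), and neither passed. Falls numbered 2 and 3 without pool 1_2 and pool 3_4, and 3 and 7 without libraries 5 and 6. Microglia depend on TGF-beta signalling for their identity, and 5 of 11 tested genes of that pathway fell, with a median of -0.87 and 3 falls of 10 tested without T-like cells. The ligand Tgfb1 stood at 143 and 116 CPM in the injured pools and 322 and 229 CPM in the uninjured libraries and fell by 1.12 ± 0.32 (edgeR adjusted p = 0.0257), a call lost without either pool and without library 5. Nrros, which holds latent TGF-beta on the microglial surface, stood at 48.6 and 51.5 CPM in the injured pools and 126 and 211 CPM in the uninjured libraries and fell by 1.64 ± 0.40 (edgeR adjusted p = 0.0131), a call lost without library 6. The receptor Tgfbr1 did not pass, at -0.74 ± 0.27 (edgeR adjusted p = 0.0668). Leaving out pool 1_2, pool 3_4, library 5 and library 6 left 1, 2, 1 and 3 falls in the pathway.

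Immediate early and feedback genes, which respond within minutes to stimulation, fell in most members. Of 32 tested members 22 fell and none rose, with a median of -1.25, and 22 of 31 fell without T-like cells. Members that fell without each of the 4 libraries in turn numbered 9, 12, 17 and 24, in the order above. Among the AP-1 and EGR factors 7 of 11 fell. Jun stood at 2474 and 3769.8 CPM in the injured pools and 9034 and 9817 CPM in the uninjured libraries, a change of -1.57 ± 0.30 (edgeR adjusted p = 0.00333), and Egr1 at 1566 and 1316 CPM in the injured pools and 3397 and 4698 CPM in the uninjured libraries, a change of -1.44 ± 0.28 (edgeR adjusted p = 0.00331). The groups of both genes were separate. Among the feedback genes 15 of 21 fell. Dusp6, a phosphatase that switches off ERK, stood at 77.4 and 45 CPM in the injured pools and 357 and 369 CPM in the uninjured libraries and fell by 2.43 ± 0.33 (edgeR adjusted p = 0.000287). Btg2, an antiproliferative gene, stood at 882 and 1226 CPM in the injured pools and 3025 and 2903 CPM in the uninjured libraries and fell by 1.48 ± 0.29 (edgeR adjusted p = 0.0034). Zfp36, which destabilises cytokine mRNAs, stood at 819 and 919.9 CPM in the injured pools and 3271 and 2868 CPM in the uninjured libraries and fell by 1.81 ± 0.28 (edgeR adjusted p = 0.000828).

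Promoters of these genes are shown because the genes fell together. RefSeq promoters (build GRCm38.p6) were searched over the 250 bases before the start. The cyclic AMP response element TGACGTCA, which reads the same on both strands, was found in 4 of 27 tested members with a promoter, 3 of which fell, against 1.55% of 32851 promoters and 3.78% of tested genes. Over all tested genes it was in 5.2% of those that rose and 4.26% of those that fell. The CArG box, the site of serum response factor, was found in 3 of the 27, 2 of which fell, against 1.47% of all promoters and 1.49% of tested genes. The windows follow, with the motif in capitals and 5′ to 3′ on the gene's strand. The first 3 hold the cyclic AMP element and the last 3 the CArG box, and Egr2 has 2 start sites.
Dusp1, chr17:26508598-26508625, minus strand: gtagggcgggTGACGTCAccgcccggtc
Btg2, chr1:134079304-134079331, minus strand: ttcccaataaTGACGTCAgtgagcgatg
Ppp1r15a, chr7:45526269-45526290, minus strand: gcctctccggTGACGTCAgcac
Egr2, chr10:67537484-67537513, plus strand: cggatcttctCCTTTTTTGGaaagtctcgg
Egr2, chr10:67537787-67537816, plus strand: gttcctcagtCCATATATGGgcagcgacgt
Zfp36, chr7:28379267-28379296, minus strand: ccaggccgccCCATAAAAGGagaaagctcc
These genes changed by -2.67 ± 0.29 (Dusp1), -1.48 ± 0.29 (Btg2), -1.09 ± 0.28 (Ppp1r15a), -2.58 ± 0.49 (Egr2) and -1.81 ± 0.28 (Zfp36). Maff, which has the cyclic AMP element, and Dusp5, which has 2 matches of the CArG box, did not pass, and their windows are not shown. Maff was at -0.52 ± 0.35. Dusp5 went the other way, with the largest positive change among the tested members of this list. A match is a description of the letters in the window and no measure of binding.

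Most NF-kB inhibitors and several cytokine genes fell. None of 4 tested subunits was called, 4 of 6 inhibitors and feedback genes fell, and of 13 targets 5 fell and Tnfaip2 rose. Nfkbid stood at 83 and 96.5 CPM in the injured pools and 287 and 264 CPM in the uninjured libraries (change -1.66 ± 0.31, edgeR adjusted p = 0.00256), a call lost without library 5. Nfkbib stood at 55.6 and 51.5 CPM in the injured pools and 175 and 264 CPM in the uninjured libraries (change -1.92 ± 0.37, edgeR adjusted p = 0.00317). Both inhibitors were lower in each pool than in each uninjured library. Among 17 tested cytokine ligands 9 fell and 2 rose, with a median of -1.12. Ccl2, a monocyte chemoattractant, stood at 137 and 196 CPM in the injured pools and 1569 and 405 CPM in the uninjured libraries and fell by 2.70 ± 0.49 (edgeR adjusted p = 0.00208). Its uninjured libraries lay far apart, and the call was lost without library 5. Ccl9 stood at 31 and 28.9 CPM in the injured pools and 112 and 229 CPM in the uninjured libraries and fell by 2.30 ± 0.43 (edgeR adjusted p = 0.0027). Ccl5, which T cells also make, was called higher with all cells and was at 1.10 and not called without T-like cells. Among 18 receptors 3 fell and 3 rose. The interferon-gamma receptor chain Ifngr1 stood at 779 and 766 CPM in the injured pools and 413 and 405 CPM in the uninjured libraries and rose by 0.92 ± 0.28 (edgeR adjusted p = 0.0334), and its partner chain Ifngr2 was among those that fell. The Ifngr1 call was not followed through the fits that leave out 1 library. Over ligands and receptors 12 fell and 5 rose, and 10 fell and 4 rose without T-like cells. Falls were 7, 9, 7 and 14 and rises 3, 4, 1 and 5 without pool 1_2, pool 3_4, library 5 and library 6. In the NF-kB list 9 of 23 fell and 1 rose in all, 8 of 22 fell and 1 rose without T-like cells, and 8, 5, 7 and 12 fell and none rose without the same libraries. In the Toll-like receptor group 4 of 13 tested genes fell. Ly86, a partner of Cd180 also called MD-1, stood at 324 and 399 CPM in the injured pools and 1772 and 1829.8 CPM in the uninjured libraries and fell by 2.30 ± 0.28 (edgeR adjusted p = 0.000131). Cd180 itself stood at 41.5 and 64.3 CPM in the injured pools and 196 and 369 CPM in the uninjured libraries and fell by 2.39 ± 0.39 (edgeR adjusted p = 0.00104). Both members of the pair were separate between the groups. The calls of the other 2, Tlr2 and Unc93b1, were lost without T-like cells. Falls in this group numbered 3, 2, 2 and 3 without the 4 libraries in the same order.

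Some genes of phagocytosis and of lysosomes fell, where 10.0% of all tested genes fell and 9.71% rose. In the list of Fc receptors and ITAM signalling, 6 of 23 tested members fell and Cd300lf rose, against 5 falls and 1 rise of 22 without T-like cells. The common adaptor Fcer1g stood at 1443 and 1190.1 CPM in the injured pools and 2780.4 and 2639 CPM in the uninjured libraries and fell by 1.02 ± 0.28 (edgeR adjusted p = 0.0223). Tyrobp, the adaptor of Trem2, stood at 1657 and 1229 CPM in the injured pools and 3096 and 2674 CPM in the uninjured libraries and fell by 0.98 ± 0.29 (edgeR adjusted p = 0.0327). Lair1, an inhibitory collagen receptor, stood at 177 and 180.1 CPM in the injured pools and 448 and 422 CPM in the uninjured libraries and fell by 1.28 ± 0.27 (edgeR adjusted p = 0.0063). Pools and uninjured libraries were separate for these 3 genes, but their calls were lost without pool 1_2, without pool 3_4 and without library 5, and the list then had 0, 1 and 3 falls, against 5 without library 6. Of 9 tested complement genes 2 fell and C4b rose, with the same counts without T-like cells, and the classical pathway genes C1qb (-0.55 ± 0.28, edgeR adjusted p = 0.175) and C1qc (-0.76 ± 0.28, edgeR adjusted p = 0.0691) did not pass. Without library 6 complement falls numbered 5. For apoptotic cell and lipid uptake, 3 of 21 fell and 2 rose, near the shares over all tested genes. Without T-like cells 2 of 20 fell and 2 rose. Both rises were the cholesterol exporters Abca1 and Abcg1. Abca1 stood at 139 and 212 CPM in the injured pools and 42 and 35.2 CPM in the uninjured libraries and rose by 2.07 ± 0.48 (edgeR adjusted p = 0.0106). The bridging ligand Gas6 stood at 41.5 and 25.7 CPM in the injured pools and 119 and 141 CPM in the uninjured libraries and fell by 1.76 ± 0.43 (edgeR adjusted p = 0.0135), a call lost without library 5. Falls in this uptake list were 2, 1, 0 and 5 and rises 1, 1, 3 and 1 without pool 1_2, pool 3_4, library 5 and library 6. The engulfment receptor Mertk did not pass (0.59 ± 0.31, edgeR adjusted p = 0.19), and neither did the lipid carrier Apoe (0.47 ± 0.46, edgeR adjusted p = 0.498), whose groups overlapped.

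Among cathepsins and their inhibitors 5 of 16 fell and none rose, and 4 of 15 fell without T-like cells. Cst3, the secreted inhibitor cystatin C, was among the most abundant transcripts, at 12328 and 10139 CPM in the injured pools and 31214 and 37950.0 CPM in the uninjured libraries, and fell by 1.58 ± 0.31 (edgeR adjusted p = 0.00325). Lgmn, the asparaginyl endopeptidase, stood at 1265 and 1422 CPM in the injured pools and 2682 and 2850.2 CPM in the uninjured libraries and fell by 1.02 ± 0.27 (edgeR adjusted p = 0.0193). Ctsz stood at 1231 and 994 CPM in the injured pools and 2423 and 2269.6 CPM in the uninjured libraries and fell by 1.05 ± 0.28 (edgeR adjusted p = 0.0194). For each the 2 pools were below the 2 uninjured libraries. Without pool 1_2 and without pool 3_4 none of the 16 was called lower, and 3 and 5 were without libraries 5 and 6. Lysosomal genes showed 8 falls and 1 rise among 43 tested, with a median of -0.43, and 6 falls and 1 rise without T-like cells. Of all tested genes 10.0% fell, and 9.34% fell without T-like cells. Pld4, a lysosomal nuclease, stood at 282 and 193 CPM in the injured pools and 609 and 651 CPM in the uninjured libraries and fell by 1.35 ± 0.28 (edgeR adjusted p = 0.00529), a call lost without pool 3_4. Lysosomal falls were 3, 1, 4 and 9 without pool 1_2, pool 3_4, library 5 and library 6. The disease-associated microglia list, genes that rise around plaques and dying neurons, had 7 falls and 1 rise among 26 tested members and a median of -0.09, and 6 falls and 1 rise of 26 without T-like cells. Its rises numbered 5 without library 5 and its falls 4, 3, 4 and 9 in the order above.

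Antigen presentation rose in few genes. Of 12 tested class I genes B2m, the light chain of class I molecules, and H2-Q7 rose, and H2-Q7 was not called without T-like cells. B2m stood at 2305 and 3014 CPM in the injured pools and 1379.7 and 1108 CPM in the uninjured libraries and rose by 1.09 ± 0.30 (edgeR adjusted p = 0.0221), a call lost without either pool. Class II genes varied between the uninjured libraries. H2-Aa stood at 1786 and 3773 CPM in the injured pools and 1016 and 0 CPM in the uninjured libraries, a change of 2.23 ± 0.78 that did not pass (edgeR adjusted p = 0.059), and 1 cell held 42.8% of its uninjured UMIs. The invariant chain Cd74 stood at 6743 and 9978 CPM in the injured pools and 4076 and 176 CPM in the uninjured libraries (change 1.86 ± 0.77, edgeR adjusted p = 0.103, and 5.87 without library 5), with 45.6% of its uninjured UMIs in 1 cell. For both genes library 5 lay between library 6 and the injured pools. Without T-like cells H2-Aa was called higher at 2.46 (edgeR adjusted p = 0.0459). Ifi30, also in the class II list, was called lower with all cells and without T-like cells, a call lost without pool 3_4. It was the only class II member called with all 4 retina libraries. Of 9 tested class II genes none was called higher with all libraries, and 4, 3, 3 and 4 were without pool 1_2, pool 3_4, library 5 and library 6. Interferon response genes showed 1 rise and 1 fall among 14 tested, and 1 of each among 11 without T-like cells. In the monocyte and S100 list 3 of 11 tested members rose and 3 fell. The rises were Fn1, Itga4 and S100a10, each on 3 or fewer uninjured UMIs. None of the 11 was called higher without library 5. Without T-like cells Fn1 was still called and the other 2 were not tested. Lyz2, a lysozyme gene, was called lower at -2.06 ± 0.68 (edgeR adjusted p = 0.0475), but it stood at 537 and 338 CPM in the injured pools and 3138 and 264 CPM in the uninjured libraries, its groups overlapped, and 1 cell held 72.8% of its uninjured UMIs. Without library 5 the change of Lyz2 was 1.08 and not called.

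Several cytosolic and mitochondrial heat shock chaperones rose. Of 29 tested members 10 rose and none fell, with a median of 0.69, the same 10 of 28 being called without T-like cells. Hspa1a (ENSMUSG00000091971, chromosome 17, 34969190 to 34972156 in GRCm38) and Hspa1b (ENSMUSG00000090877, chromosome 17, 34956436 to 34959238 in GRCm38), the inducible HSP70 genes, are near-identical, so the split of reads between them is uncertain. Hspa1a stood at 7052 and 6739 CPM in the injured pools and 1562 and 1073 CPM in the uninjured libraries and rose by 2.38 ± 0.32 (edgeR adjusted p = 0.000322). Hsph1, an HSP70 exchange factor, stood at 1049 and 766 CPM in the injured pools and 126 and 299 CPM in the uninjured libraries and rose by 2.28 ± 0.36 (edgeR adjusted p = 0.000871). Hsp90ab1, the constitutive HSP90, stood at 3362 and 2474 CPM in the injured pools and 840.4 and 792 CPM in the uninjured libraries and rose by 1.85 ± 0.30 (edgeR adjusted p = 0.000959). In these 3 genes both pools were above both uninjured libraries. Hspd1 (ENSMUSG00000025980, chromosome 1, 55077835 to 55088243 in GRCm38) and Hspe1 (ENSMUSG00000073676, chromosome 1, 55088132 to 55091307 in GRCm38) encode the chaperonin pair of mitochondria, HSP60 and HSP10. Hspd1 stood at 892 and 585 CPM in the injured pools and 119 and 176 CPM in the uninjured libraries and rose by 2.42 ± 0.35 (edgeR adjusted p = 0.000451), and Hspe1 stood at 1368 and 1013 CPM in the injured pools and 301 and 264 CPM in the uninjured libraries and rose by 2.06 ± 0.31 (edgeR adjusted p = 0.000627). Again the groups were separate. The co-chaperone Bag3 had 46.7% of its uninjured UMIs in 1 cell. Rises numbered 8, 10, 11 and 10 without pool 1_2, pool 3_4, library 5 and library 6. With overlapping and copied genes removed, 4 of 13 tested members rose.

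Hspd1 and Hspe1 lie head to head and share the window below, which is shown because the pair rose together and holds the heat shock element. The search used GAANNTTCNNGAA on both strands, where N is any base. It matched 2 of 7 chaperone genes that rose and had a RefSeq promoter, 3 of 24 tested members with a promoter, 0.466% of all promoters and 0.496% of tested genes. The 2 of 7 are the 1 shared window, and over all tested genes the element was in 1.6% of those that rose and 1.55% of those that fell. The 2 matches overlap, and they are in capitals.
Hspd1, chr1:55088049-55088086, minus strand: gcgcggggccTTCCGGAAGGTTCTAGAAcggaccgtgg
Hspe1, chr1:55088049-55088086, plus strand: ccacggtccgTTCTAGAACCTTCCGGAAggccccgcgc
The third match, in Dnajb6, belongs to a gene that did not pass (0.60 ± 0.32, edgeR adjusted p = 0.206). Hspa1a and Hspa1b had no such match in their windows.

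Folding genes of the endoplasmic reticulum were called about as often as all tested genes (9.71% higher and 10.0% lower). Of 19 tested members the chaperone Hspa5, or BiP, was called higher and Herpud1 and Ddit3 lower, with 1 call each way of 18 without T-like cells. The Ddit3 call was lost in 11 of 14 alternatives, without each of the 4 libraries and without T-like cells among them, and the list had 1, 0, 1 and 1 falls without pool 1_2, pool 3_4, library 5 and library 6. Hspa5 stood at 5237 and 2933 CPM in the injured pools and 1772 and 2534 CPM in the uninjured libraries and rose by 0.98 ± 0.32 (edgeR adjusted p = 0.0481), a call lost without pool 1_2, and with each cell weighted equally its change was -0.09. Herpud1, which acts in the removal of misfolded proteins, stood at 438 and 277 CPM in the injured pools and 1016 and 1179 CPM in the uninjured libraries and fell by 1.56 ± 0.29 (edgeR adjusted p = 0.00279), a call lost without pool 3_4. Ubb, a ubiquitin gene, stood at 2068 and 2268 CPM in the injured pools and 6275 and 6492 CPM in the uninjured libraries and fell by 1.53 ± 0.28 (edgeR adjusted p = 0.00226), a call lost without pool 1_2. Of 19 tested subunits of the proteasome core particle Psmb2 alone was called, lower, and in the whole list of 36 tested genes 4 fell and 1 rose, with the same counts of 35 without T-like cells. Psmb2 was not called without pool 1_2 or library 5, and falls in the list numbered 1, 3, 2 and 4 without pool 1_2, pool 3_4, library 5 and library 6.

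Most ribosomal protein genes and some translation factor genes rose. Of 81 tested cytosolic ribosomal protein genes 57 rose and 1, Rpl29, fell, with a median of 1.13, and 58 rose without T-like cells. The small subunit had 26 rises among 33 tested genes and the large subunit 31 among 48. Rises numbered 27 without pool 1_2, 41 without pool 3_4, 75 without library 5 and 60 without library 6. Of the 81 genes 78 overlap another gene or have a near-identical pseudogene copy, and of the 3 that do not, 2 rose. Rpl41, without either, stood at 4188 and 3911 CPM in the injured pools and 3418 and 2481 CPM in the uninjured libraries and did not pass (0.46 ± 0.30, edgeR adjusted p = 0.3). Among 41 tested translation factors 11 rose and 1 fell, with a median of 0.70 and the same counts without T-like cells. Rack1, a scaffold of the small subunit, stood at 1888 and 1814 CPM in the injured pools and 448 and 282 CPM in the uninjured libraries and rose by 2.29 ± 0.32 (edgeR adjusted p = 0.000417). Pabpc1, the poly(A)-binding protein, stood at 1129.5 and 984 CPM in the injured pools and 315 and 369 CPM in the uninjured libraries and rose by 1.66 ± 0.29 (edgeR adjusted p = 0.00146). Eef2, the translocation factor, stood at 772 and 627 CPM in the injured pools and 259 and 282 CPM in the uninjured libraries and rose by 1.40 ± 0.29 (edgeR adjusted p = 0.00538). Pools stood above libraries for all 3. The helicase Eif4a1 went the other way, at 408 and 335 CPM in the injured pools and 924 and 897 CPM in the uninjured libraries (change -1.27 ± 0.27, edgeR adjusted p = 0.00657), a call lost without either pool and without library 5. Elongation and nascent chain genes had 8 rises among 14 and initiation genes 3 rises among 27. None of the 6 translation factors free of copies and overlaps was called. Over all genes with at least 10 UMIs in each group the median change was -0.33 for 1571 genes with no copy, -0.13 for 689 with 1 to 5, 0.19 for 132 with 6 to 20 and 0.30 for 32 with more. How reads on copies were counted in each group was not tested and cannot be told apart from the crush.

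Energy metabolism and the remaining lists changed in few members, where 9.71% of all tested genes rose and 10.0% fell. Of 68 tested nuclear genes of the respiratory chain 4 rose and 2 fell, with the same counts of 67 without T-like cells. Rises were 2 without any 1 of the 4 libraries, and falls 0, 0, 1 and 2 without pool 1_2, pool 3_4, library 5 and library 6. Cox7a2l, a factor of respiratory supercomplexes, stood at 427 and 415 CPM in the injured pools and 91 and 141 CPM in the uninjured libraries and rose by 1.97 ± 0.33 (edgeR adjusted p = 0.00116). Of 13 mitochondrially encoded genes 3 rose and 3 fell, also without T-like cells. Without the same libraries 0, 1, 2 and 3 rose and 0, 2, 0 and 3 fell. Of 14 glycolysis genes 4 fell and 1 rose, with 2 falls without T-like cells. In the list of iron and oxidative stress genes 3 rose and 2 fell. Ftl1, the ferritin light chain, stood at 4354 and 3499.6 CPM in the injured pools and 7689.8 and 8621 CPM in the uninjured libraries and fell by 1.02 ± 0.28 (edgeR adjusted p = 0.0243), a call lost without either pool. Without pool 1_2, pool 3_4, library 5 and library 6, falls in glycolysis were 1, 1, 3 and 0. In the actin list 7 of 41 fell and 4 rose, against 7 falls and 2 rises without T-like cells, with 1, 2, 3 and 8 falls and 3, 3, 1 and 4 rises without the same libraries. Actb stood at 3446 and 4049.6 CPM in the injured pools and 16262 and 10152 CPM in the uninjured libraries and fell by 1.82 ± 0.34 (edgeR adjusted p = 0.00265), a call lost without pool 1_2, and Actg1 stood at 1168 and 1019.6 CPM in the injured pools and 3516 and 3360.4 CPM in the uninjured libraries and fell by 1.63 ± 0.28 (edgeR adjusted p = 0.00145), a call lost without either pool. Both are widely used as reference genes. Wasf2, a WAVE complex subunit that drives actin branching, stood at 276 and 289 CPM in the injured pools and 84 and 123 CPM in the uninjured libraries and rose by 1.54 ± 0.34 (edgeR adjusted p = 0.00774), a call lost without library 5. Tmsb10, a thymosin that binds actin monomers, was called higher at 1.44 ± 0.33 with all cells and was at -0.62 without T-like cells. Of 31 splicing factors 4 fell and 1 rose, against 4 falls and no rise without T-like cells, with 1, 2, 1 and 4 falls without the same libraries. Srsf2 stood at 158 and 145 CPM in the injured pools and 623 and 545 CPM in the uninjured libraries and fell by 1.94 ± 0.28 (edgeR adjusted p = 0.000432). The nuclear noncoding RNA Neat1 stood at 232 and 135 CPM in the injured pools and 476 and 651 CPM in the uninjured libraries and fell by 1.5 ± 0.31 (edgeR adjusted p = 0.00476), a call lost without pool 3_4. The noncoding RNA Malat1 stood at 15754 and 14220.4 CPM in the injured pools and 16318 and 16767 CPM in the uninjured libraries. It did not pass (-0.11 ± 0.29, edgeR adjusted p = 0.815), but with each cell weighted equally its change was -3.14 (limma adjusted p = 6.89e-69). The limma value rests on 2 libraries a side and a variance shared across genes, so it does not measure the spread of Malat1 itself.

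**Figure D4:**
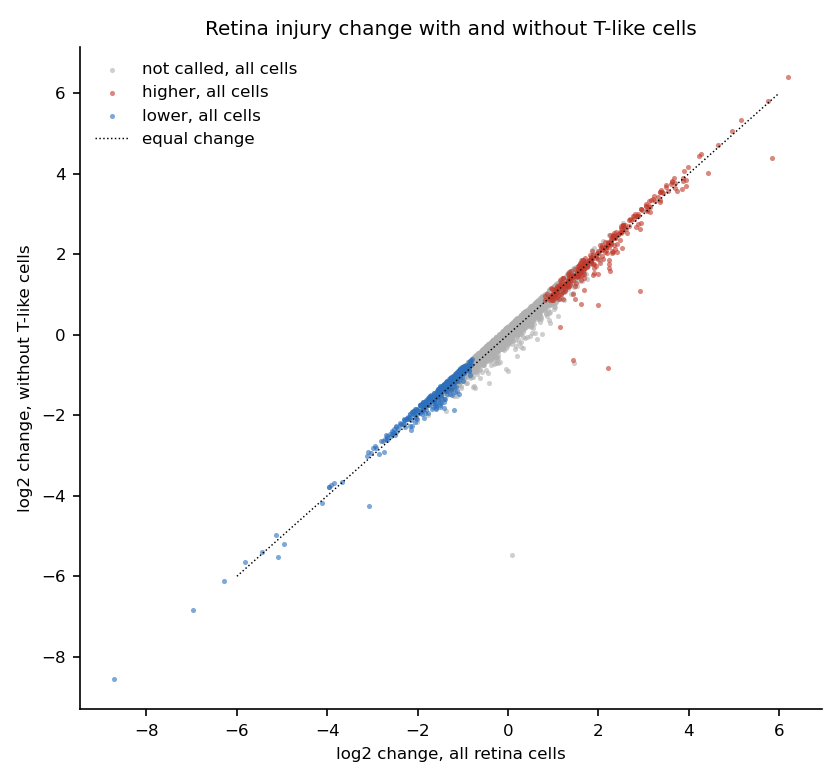
Log2 change of injured minus uninjured retina for each tested gene with all cells (horizontal axis) and without T-like cells (vertical axis). Red and blue points were called higher and lower with all cells, grey points were not called, and the dotted line marks equal change. Of the 646 calls 516 were also made, in the same direction, without T-like cells.

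Among called genes with at least 10 UMIs in each group, the 12 largest rises comprised 6 ribosomal protein genes, 4 heat shock genes, Stat3 and Dennd4a. Stat3, the transcription factor downstream of IL-6 family cytokines, stood at 259 and 351 CPM in the injured pools and 42 and 88 CPM in the uninjured libraries and rose by 2.40 ± 0.41 (edgeR adjusted p = 0.00143). Dennd4a, a Rab exchange factor, stood at 293 and 428 CPM in the injured pools and 56 and 70.4 CPM in the uninjured libraries and rose by 2.54 ± 0.40 (edgeR adjusted p = 0.000819). Both pools were above both libraries for each gene. The 12 largest falls included Hpgd, Rtn1, Crlf2, Comtd1, Slc46a1 and Sept2. Hpgd, which inactivates prostaglandins, stood at 21.8 and 0 CPM in the injured pools and 266 and 246 CPM in the uninjured libraries and fell by 3.96 ± 0.55 (edgeR adjusted p = 0.000368). Slc46a1, the proton-coupled folate transporter, stood at 12.7 and 9.65 CPM in the injured pools and 84 and 123 CPM in the uninjured libraries and fell by 2.99 ± 0.52 (edgeR adjusted p = 0.00168). Crlf2, a chain of the TSLP receptor, stood at 10.6 and 3.22 CPM in the injured pools and 63 and 106 CPM in the uninjured libraries and fell by 3.07 ± 0.62 (edgeR adjusted p = 0.00423), a call lost without either pool. The groups of these 3 genes were separate. Optic nerve libraries offer a second set of levels for the same genes. The median of the 4 optic nerve libraries, 2 injured and 2 uninjured, was compared with each retina group as log2 of CPM plus 1. It was nearer the uninjured retina for 6 of the 12 rises and 4 of the 12 falls, and nearer the injured retina for 6 and 8. Over all calls it was nearer the uninjured retina for 122 of 318 rises and 88 of 328 falls, and nearer the injured retina for 196 and 240. This median mixes nerves with and without a crush, so it is no baseline for either retina group.

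Whether the crush effect differed between retina and optic nerve was tested with limma on the mean natural log value per cell of each library, as the retina effect minus the optic nerve effect over 8 libraries. Of 5308 genes 300 were called (5.65%), 210 with a higher retina effect (3.96%) and 90 with a lower one (1.7%), and 277 were called without T-like cells. Each cell counts equally in these means, so T-like cells weigh by their number rather than by their UMIs. Among the 8 named genes with the smallest p, Ctsd, the aspartic protease cathepsin D, was -1.53 ± 0.29 in retina and 1.90 ± 0.29 in optic nerve, a difference of -3.43 ± 0.41 (limma adjusted p = 0.000115). Tyrobp was -1.24 ± 0.27 in retina and 1.52 ± 0.27 in optic nerve (limma adjusted p = 0.000751), and Ftl1 was -1.11 ± 0.25 and 1.57 ± 0.25 (limma adjusted p = 0.000391). Over the 11 alternatives the difference ranged from -3.87 to -2.54 for Ctsd, -3.12 to -1.92 for Tyrobp and -3.08 to -2.22 for Ftl1. The fit without T-like cells is 1 of these alternatives, and edgeR, on a log2 scale, is another. The complement genes had the same pattern of a negative retina and a positive nerve effect, C1qb at -1.55 ± 0.22 and 1.06 ± 0.22 (limma adjusted p = 0.000122) and C1qc at -1.49 ± 0.25 and 1.0 ± 0.25 (limma adjusted p = 0.000785). Neither gene was called in the retina test on summed UMIs (log2 -0.55 ± 0.28 and -0.76 ± 0.28), and without T-like cells their differences between tissues were -1.39 and -1.38, against -2.61 and -2.49 with all cells. Hspa1b had the opposite signs, at 2.53 ± 0.23 in retina and -0.89 ± 0.23 in optic nerve (limma adjusted p = 1.2e-05), and so did Hspa1a, at 2.10 ± 0.26 and -1.11 ± 0.26 (limma adjusted p = 0.000106). For Olfml3 the retina effect was -1.85 ± 0.19 and the nerve effect -0.08 ± 0.19 (limma adjusted p = 0.00154). The number of calls was 158, 107, 541 and 267 without pool 1_2, pool 3_4, library 5 and library 6, and 164, 157, 87 and 119 without optic nerve libraries 1 to 4. The calls of C1qb, C1qc and Ftl1 were each lost in 1 of the 11 alternatives, edgeR on UMIs, and those of the other 5 genes in none.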

How the data were processed

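Single cells of retinas and optic nerves were sequenced as 3′ 10x libraries. Per the submitters' processing notes, Cell Ranger 1.3, bcl2fastq 2.17.1.14 and Seurat 4.0.3 were used with genome mm10. The series' design text states 1168 macrophages and microglia with at least 200 and at most 6500 genes, and the table holds 1168 cells. The authors deposited the retina columns as raw UMI counts and the optic nerve columns as natural log values, ln of 1 plus 10000 times UMIs over the cell total. Undoing that log gave whole UMIs for 1374534 of 1374534 values above 0 (tolerance 0.01).

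UMIs were summed per library and tested with edgeR 4.0.16 (TMM scaling, a minimum of 45.2 CPM in 2 libraries). Whether an effect differed between tissues was tested with limma 3.58.1 on genes detected in 10% of cells or more, with the retina counts put on the same natural log scale. DESeq2 1.42.0 was an alternative. P-values were adjusted by Benjamini-Hochberg over all genes tested. Cells were clustered with scanpy 1.11.5 at resolution 0.5, and no doublet caller was run. Intervals cover counting error only. Gene names and positions came from the GENCODE M21 annotation of GRCm38. A pseudogene copy was a blastn 2.17.0 match of at least 90% identity over 150 bases.

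On simulated counts at these depths, 6.74% of genes changed by log2 1 and 45.5% of those changed by log2 2 were recovered. This was over 3242 genes in the retina comparison, with 0 false calls. Every simulated gene had the same dispersion, 0.0382, and neither single cells nor T-like cells were modelled. The simulation therefore cannot tell how many of the 646 calls are false. In the simulated test between tissues, 200 genes were changed by 1 natural log unit in injured retina, a scale unlike the log2 changes above. Of these 86% were recovered over 5308 genes, with 4 false calls. The members, gene lists and tests were chosen with earlier results of these data known. Named genes were the 12 largest called rises and falls with at least 10 UMIs in each group, up to 6 members of each list with the smallest p and at least 4 UMIs in each group, and 8 of these by the test between tissues. Genes named outside that rule (among them Cx3cr1, Csf1r, Spi1, Irf8, Jun, Egr1, Btg2, Zfp36, Ifngr1, Mertk, Apoe, Hsph1, Hsp90ab1 and Rpl41) were chosen after their values were seen. They were not followed gene by gene through the fits that leave out 1 library. Where no lost call is mentioned for them, the call is not thereby stable.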

Additional observations from a re-analysis of the deposited data

Results flagged for a closer look

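For 8 named genes the crush effect differed between the retina and the optic nerve by limma's test of the difference itself, given as the retina effect minus the optic nerve effect in mean natural log value. The difference was 3.42 for Hspa1b, 3.22 for Hspa1a, -1.77 for Olfml3, -2.49 for C1qc, -2.61 for C1qb, -2.76 for Tyrobp, -3.43 for Ctsd and -2.68 for Ftl1. Hspa1a and Hspa1b are near-identical and count as 1 observation.

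Signal also appeared in entries outside the edgeR comparison, which needed a UMI in both groups. Injured retina held 7753 UMIs in the last 24183 entries of the table, 0.448% of its UMIs, where uninjured retina held 0. Over the whole table, 44348 UMIs of injured retina, 2.56% of the total, lay in 3593 entries with none in uninjured retina, against 1273 UMIs, 0.638%, in the 612 entries found in uninjured retina alone. For 16 entries injured retina held at least 100 UMIs and the 6 other libraries 0. The 3593 entries include T cell markers. In the last 24183 entries all 4 optic nerve libraries had UMIs, and whether the groups were counted on different annotations was not tested.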

How the results depend on the processing

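The 646 calls of the retina comparison became 325 with DESeq2, 341 with at least 10 UMIs in each group, 221 with all 8 libraries in 1 fit and 409 without overlapping or copied genes. Leaving out 1 library gave 338 to 580. The other 7 alternatives gave 486 to 797 (797 with each cell weighted equally). The fit without every cluster named other than microglia, border macrophage or monocyte equals that without T-like cells. The fit without T-like cells and the cluster of 20 cells, with 486 calls, was chosen after seeing the data. The 300 calls of the test between tissues became 29 with every gene that had a UMI in both tissues and 74 with edgeR on UMIs, and 87 to 541 without 1 library. The T-like difference ranged from 20.2 to 42.1 percentage points without 1 library. Over 135 called named genes, 1526 of 1945 alternative values kept direction and call, 415 kept the direction only and 4 had the other sign. The last were Lyz2 at 1.08 without library 5, Tmsb10 at -0.62 without T-like cells and -0.69 without those and the cluster of 20 cells, and Hspa5 at -0.094 with each cell weighted equally. Of 52 uncalled named genes 26 were called in at least 1 alternative (54 of 703 values). With each cell weighted equally, Malat1 was at -3.14 and C1qb at -2.24 (limma adjusted p = 6.89e-69 and 5.04e-20, each over 2 libraries a side). The variance behind these limma values was shared across genes, so they do not measure the spread of either gene itself. Cd74 was at 5.87 without library 5, where library 6 alone stood for uninjured retina. Signs of uncalled genes changed as follows. Malat1 was at 0.085 with no filter, 0.18 with at least 10 UMIs, 0.11 without pool 3_4, 0.15 without library 5, 0.062 without T-like cells and 0.35 without those and the cluster of 20 cells. Kcnq1ot1 was at 0.044 with at least 10 UMIs and 0.0017 without library 5, Hmgb2 at 0.076, 0.19 and 0.63 with at least 10 UMIs, without pool 3_4 and without library 5, Lgals3 at -0.098 without pool 1_2 and Osm at 0.30 without library 5. With 1 library left out, the range was -2.85 to 1.08 for Lyz2, -0.92 to 0.30 for Osm, -0.098 to 1.48 for Lgals3, -0.16 to 0.15 for Malat1, -0.52 to 0.63 for Hmgb2 and -0.25 to 0.0017 for Kcnq1ot1. The cause was not tested. Where 1 library is left out, the lone library of its group is assumed to vary like the other group. No paired analysis was possible because injured and uninjured retina share no replicate numbers. Uninjured depth, 142787 and 56838 UMIs, limits the rises that rest on few uninjured UMIs.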
